A study of Homo sapiens with 12 samples.

Results

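The snoRNA host long non-coding genes are 10 genes that were chosen by name, GAS5, ZFAS1, SNHG1, SNHG3, SNHG5, SNHG6, SNHG8, SNHG12, SNHG15 and SNHG16, out of 43876 genes in the expression table. All 10 were found by symbol, and all 10 passed the filter on low values. Their RNA was measured in MV4-11 cells, an established human acute myeloid leukemia line with an internal tandem duplication of the receptor kinase gene FLT3, although the labels give its genotype as wild-type. Cells were treated for 24 h with DMSO, with 20 nM Mitoxantrone, with 25 nM Gilteritinib, or with both (Drug-combination, 20 nM of each), and every condition had 3 libraries. Mitoxantrone is a topoisomerase II poison, and Gilteritinib inhibits FLT3. The labels say Mitoxantrone, and that name is used here for the group. The study gives the drug of these libraries as mitoxantrone-liposome, a form that it compares with free mitoxantrone in other experiments. No source used here says whether the replicates were separate cultures, so a p-value measures the spread between these libraries, which may be technical. All libraries are of this 1 line.

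Small nucleolar RNAs (snoRNAs) guide chemical changes on ribosomal RNA. Those with C and D boxes direct ribose methylation, and those with H and ACA boxes direct the change of uridine to pseudouridine. Most human snoRNAs are cut from introns of longer host transcripts. The 10 genes here make hosts whose spliced RNA codes for no long protein. Several of these spliced RNAs are translated over short frames and destroyed by nonsense-mediated decay, and many begin with a pyrimidine-rich 5′ terminal oligopyrimidine (TOP) start that ties translation of ribosomal protein mRNAs to growth signals. GAS5 was named for its accumulation in growth-arrested cells. In bulk RNA, fewer cells that express a gene and less RNA of it per cell cannot be told apart.

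The TOP start is a feature that the choice of genes did not use, and the first 30 bases of 1 annotated transcript are shown for each of 8 hosts to let the shared start be seen. The transcripts are from GENCODE 29 (GRCh38), written 5′ to 3′ on the strand of the gene, and the capitals mark the run of C and T at the start.
GAS5: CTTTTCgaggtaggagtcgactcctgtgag
ZFAS1: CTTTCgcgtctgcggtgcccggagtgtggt
SNHG1: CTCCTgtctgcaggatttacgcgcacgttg
SNHG3: CCTTTTTggagacagattcgcagtggtcgc
SNHG5: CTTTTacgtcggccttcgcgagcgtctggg
SNHG8: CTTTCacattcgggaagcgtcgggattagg
SNHG12: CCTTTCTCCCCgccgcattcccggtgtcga
SNHG16: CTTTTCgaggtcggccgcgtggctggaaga
A start was counted when the first base was C and at least the next 4 bases were C or T, on the transcript strand only. It was found in 24 of 135 annotated transcripts of the 10 hosts (17.8%) and in at least 1 transcript of 9 of 10 hosts. SNHG15 had none in its 10 transcripts. Among all 206694 annotated transcripts the share was 2.41%, and among coding transcripts of ribosomal protein genes it was 19.1%. By gene, 6.58% of all genes had at least 1 such transcript, and 55.8% of ribosomal protein genes had a coding one. A gene with more annotated transcripts can pass more easily, and genes were not matched on that number. The 8 transcripts shown were picked from those with such a start, which were 6 of 29 for GAS5 and 1 of 25 for SNHG1. Of these 8, 6 are annotated as retaining an intron. These are annotated starts, and which of them the cells used was not measured.

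The annotation used here placed 24 snoRNA genes inside 9 of the hosts on the same strand. The search found none inside GAS5, so its snoRNAs were not analysed here. SNORA16A, without a row, is entered under more than 1 gene identifier at overlapping positions in SNHG12, and each entry is counted. The hosts with C/D box snoRNAs were ZFAS1, SNHG1, SNHG5, SNHG6 and SNHG16, those with H/ACA box snoRNAs were SNHG3, SNHG8 and SNHG15, and SNHG12 held both kinds. Of the 24, 5 had a row in the table. Their sequences are shown because they are the snoRNAs whose levels can be set beside the level of a host. Capitals mark TGATGA (box C) and CTGA (box D) in the C/D snoRNAs and ACA near the end of SNORA73B, each searched on the snoRNA strand only. No TGATGA was found in SNORD99.
SNORD12C: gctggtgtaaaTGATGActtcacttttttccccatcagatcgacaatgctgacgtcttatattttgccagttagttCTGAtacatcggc
SNORD12B: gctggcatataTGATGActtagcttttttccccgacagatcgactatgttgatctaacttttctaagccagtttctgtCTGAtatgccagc
SNORD99: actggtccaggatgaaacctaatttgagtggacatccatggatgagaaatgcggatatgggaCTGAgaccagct
SNORD1B: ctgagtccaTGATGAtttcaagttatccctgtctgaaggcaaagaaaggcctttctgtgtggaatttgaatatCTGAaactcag
SNORA73B: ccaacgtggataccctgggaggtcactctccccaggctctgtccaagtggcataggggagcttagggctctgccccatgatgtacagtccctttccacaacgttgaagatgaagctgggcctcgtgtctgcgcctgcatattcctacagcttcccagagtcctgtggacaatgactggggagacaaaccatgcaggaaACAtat
In GRCh38, SNORD12C lies at chr20:49278940-49279028 and SNORD12B at chr20:49280319-49280409, both on the plus strand within ZFAS1. SNORD99 lies at chr1:28578749-28578822 on the minus strand within SNHG12. SNORD1B lies at chr17:76561109-76561192 on the plus strand within SNHG16. SNORA73B lies at chr1:28508559-28508762 on the plus strand within SNHG3. All 5 share no base with an annotated exon of the host, and all 19 that have no row lie wholly (18) or partly (1, SNORD30) in a host exon.

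The levels spanned about an order of magnitude. In DMSO, the mean FPKM (fragments scaled for gene length and library depth) was 91.5 ± 9.99 (SD, n = 3) for SNHG3 and 90.8 ± 5.06 for SNHG6, whose values overlapped. GAS5 followed at 77.5 ± 3.65 FPKM, below every DMSO value of SNHG6. SNHG1 (47.9 ± 3.81 FPKM) and SNHG16 (43.4 ± 2.85 FPKM) overlapped, as did ZFAS1 (18.7 ± 3.04), SNHG15 (18.04 ± 0.824) and SNHG12 (17.7 ± 2.995). SNHG5 (11.7 ± 0.748 FPKM) and SNHG8 (9.31 ± 0.303 FPKM) were lowest, and neither overlapped its neighbour. Thus 4 of 9 neighbours in the order did not differ beyond their range in DMSO. SNHG3 had a higher mean DMSO level than 97.2% of the 18574 genes tested, and SNHG8 a higher one than 64.6%.

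The order depends on the length by which the deposited values were divided. Whole fragments could be recovered for each host in all 12 libraries, none further than 0.0118 from a whole number, and the length that gave them was 648 nt for SNHG6 but 6165 nt for SNHG8. For SNHG3, SNHG6, SNHG12 and SNHG16 it equals the longest GENCODE 29 transcript, whereas for SNHG8 it is 9.17 times, for SNHG5 5.585 times and for ZFAS1 4.21 times that length. In fragments GAS5 led with a DMSO mean of 8555, ahead of SNHG3 with 8404, and SNHG12 was last with 1247. With the same fragments divided by the longest GENCODE 29 transcript, the DMSO mean would be 143 FPKM for GAS5 and 85.4 FPKM for SNHG8. SNHG8 would then rank 4 of 10. This keeps fragments that may lie outside the GENCODE 29 exons, which for SNHG8 cover 923 nt in all. A count on those exons could therefore give lower values. Ratios of FPKM between conditions within a gene do not depend on the length used, but differences in log2(FPKM + 1) do so slightly, since the added 1 weighs more at a low FPKM. Each library held 951 (SNHG12) to 10370 (SNHG3) fragments of a host. This gives a counting error of 0.982% to 3.24% if each fragment came from a separate molecule, and a larger one if amplification made copies. The spread between replicates was larger, with a median coefficient of variation of 9.002% over the 40 means, except for GAS5 in Mitoxantrone (SD 0.673, counting error 0.839 FPKM).

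**Figure D1:**
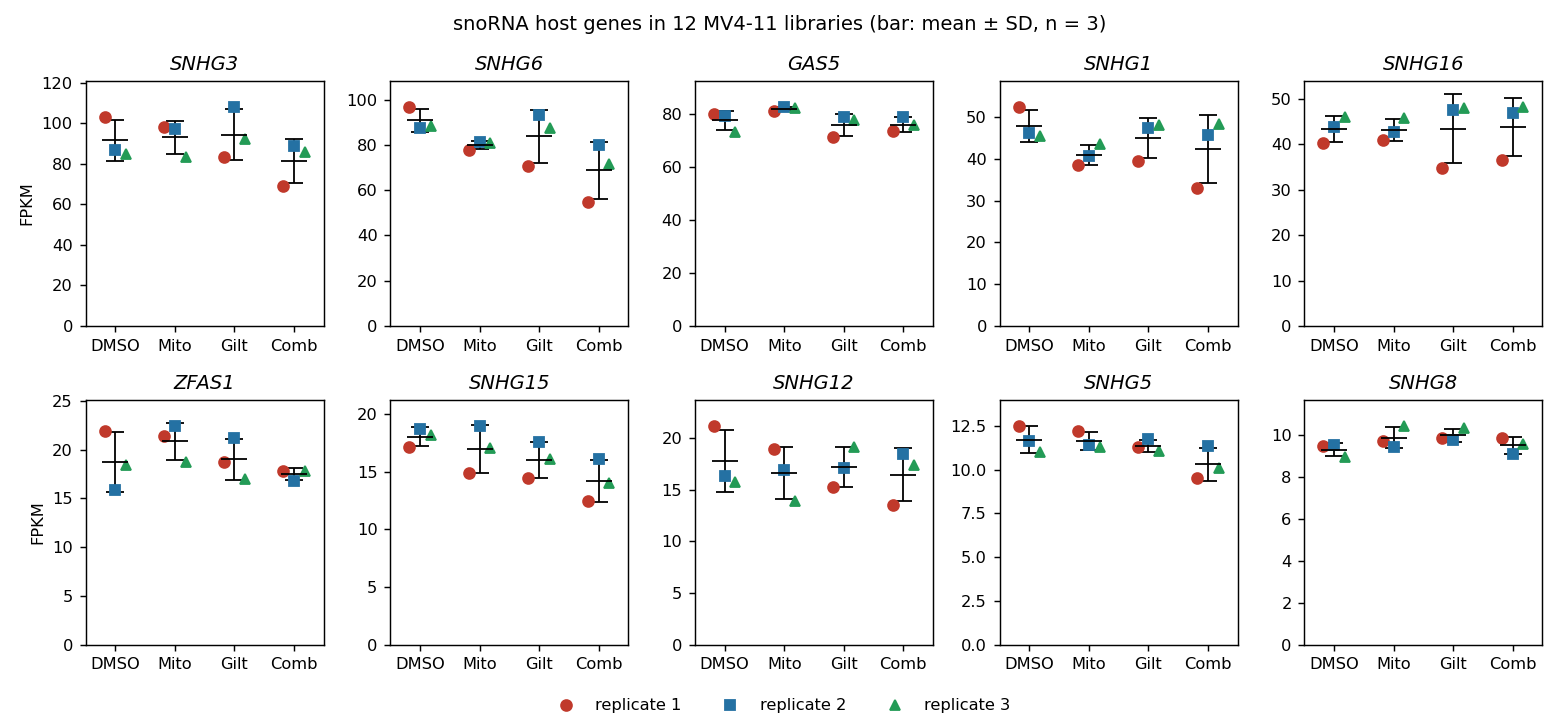
FPKM of each host (vertical axes, linear from 0) in DMSO, Mitoxantrone (Mito), Gilteritinib (Gilt) and Drug-combination (Comb); points are libraries by replicate number and bars the mean ± SD of 3. The red replicate 1 point of the combination is the lowest of the 12 for SNHG3, SNHG6, SNHG1, SNHG15, SNHG12 and SNHG5, while GAS5 and SNHG8 stay within 71.1 to 82.4 and 8.96 to 10.4 FPKM.

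GAS5 is known as a host of C/D box snoRNAs, which were not analysed here, and its level varied little. Its FPKM in replicates 1 to 3 was 80.0, 79.1 and 73.3 in DMSO, 81.2, 82.4 and 82.2 in Mitoxantrone, 71.1, 78.9 and 77.6 in Gilteritinib, and 73.4, 78.8 and 75.6 in Drug-combination. Every Mitoxantrone value was above every value of the other conditions, by little: the highest level over the 12 libraries was 1.16 times the lowest. GAS5 lies at chr1:173863900-173868882 (minus strand), and 1.16% of its exon bases are shared with GAS5-AS1 on the opposite strand.

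ZFAS1 is transcribed next to and opposite the start of ZNFX1. Its FPKM was 21.9, 15.9 and 18.5 in DMSO, 21.4, 22.5 and 18.7 in Mitoxantrone, 18.8, 21.2 and 17.0 in Gilteritinib, and 17.8, 16.7 and 17.9 in Drug-combination. The DMSO values spanned nearly the whole range, and only Mitoxantrone and Drug-combination did not overlap. It lies at chr20:49278178-49295738 (plus strand), and 42.9% of its exon bases overlap other genes, mostly on the opposite strand. The sources used here do not say that the library kept strand, so reads of ZFAS1 and of its opposite partners cannot be told apart.

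SNHG1 is the host of SNORD22, of SNORD25 to SNORD28 and of SNORD30. It was at 52.3, 46.0 and 45.4 FPKM in DMSO, 38.5, 40.7 and 43.4 in Mitoxantrone, 39.4, 47.3 and 48.1 in Gilteritinib, and 33.0, 45.7 and 48.3 in Drug-combination. All Mitoxantrone values were below all DMSO values, and in the other drug conditions only replicate 1 was. SNHG1 lies at chr11:62851988-62855914 (minus strand) and shares no exon base with another gene.

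SNHG5, the host of SNORD50B, was at 12.5, 11.6 and 11.0 FPKM in DMSO, 12.2, 11.4 and 11.3 in Mitoxantrone, 11.3, 11.7 and 11.0 in Gilteritinib, and 9.49, 11.3 and 10.1 in Drug-combination. Replicates 1 and 3 of the combination were the lowest of the 12, and its replicate 2 overlapped the rest. The gene lies at chr6:85660950-85678748 on the minus strand.

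SNHG6, the host of SNORD87, was at 96.6, 87.6 and 88.2 FPKM in DMSO, 77.7, 81.1 and 80.9 in Mitoxantrone, 70.5, 93.4 and 87.4 in Gilteritinib, and 55.0, 79.8 and 71.4 in Drug-combination. Mitoxantrone and Drug-combination were wholly below DMSO. This is the widest range of the 10 hosts, with the highest library at 1.76 times the lowest. SNHG6 lies at chr8:66921684-66926398 (minus strand), and 29.3% of its exon bases overlap MCMDC2 on the opposite strand.

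SNHG16, the host of SNORD1A, SNORD1B and SNORD1C, was at 40.3, 43.9 and 45.9 FPKM in DMSO, 40.8, 42.6 and 45.7 in Mitoxantrone, 34.7, 47.5 and 48.02 in Gilteritinib, and 36.5, 46.9 and 48.1 in Drug-combination. Here the conditions overlapped, and replicate 1 was the lowest library of each. SNHG16 lies at chr17:76557766-76565348 (plus strand), and 30.6% of its exon bases overlap AC015802.6 on the opposite strand.

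Among hosts of H/ACA box snoRNAs, SNHG3 carries SNORA73A and SNORA73B, which take part in early cuts of the ribosomal RNA precursor. Its FPKM was 103, 86.6 and 84.9 in DMSO, 98.2, 97.2 and 83.4 in Mitoxantrone, 83.3, 107.8 and 92.0 in Gilteritinib, and 69.0, 88.8 and 85.9 in Drug-combination. The conditions overlapped. SNHG3 lies at chr1:28505980-28510892 (plus strand) and shares 5.92% of its exon bases with RCC1 on the same strand.

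SNHG8, the host of SNORA24, was the most even member over all 12 libraries, with a coefficient of variation of 4.55%. It was at 9.47, 9.51 and 8.96 FPKM in DMSO, 9.73, 9.45 and 10.4 in Mitoxantrone, 9.87, 9.77 and 10.4 in Gilteritinib, and 9.87, 9.08 and 9.57 in Drug-combination. Gilteritinib was wholly above DMSO, by little. SNHG8 lies at chr4:118278709-118279823 on the plus strand.

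SNHG15, the host of SNORA9 and the only member with no TOP-like start, was at 17.1, 18.8 and 18.2 FPKM in DMSO, 14.9, 19.0 and 17.1 in Mitoxantrone, 14.4, 17.6 and 16.2 in Gilteritinib, and 12.4, 16.1 and 14.03 in Drug-combination. The combination was wholly below DMSO, and Gilteritinib overlapped DMSO through its replicate 2. SNHG15 lies at chr7:44983023-44986961 (minus strand) and shares no exon base with another gene.

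SNHG12, which holds snoRNAs of both kinds, was at 21.2, 16.3 and 15.8 FPKM in DMSO, 19.0, 16.9 and 13.9 in Mitoxantrone, 15.3, 17.1 and 19.2 in Gilteritinib, and 13.5, 18.4 and 17.4 in Drug-combination. All conditions overlapped. It lies at chr1:28578538-28583132 (minus strand).

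The comparison of each single drug with DMSO asks what that drug alone did to the hosts. In Mitoxantrone against DMSO, 4 hosts were above 0 and 6 below on the log2(FPKM + 1) scale, with a median difference of -0.01 beside 0.03 over all genes tested. The largest differences were -0.22 for SNHG1 (SE 0.134, adjusted p = 0.754), -0.18 for SNHG6 (adjusted p = 0.826) and 0.15 for ZFAS1 (adjusted p = 0.839), by limma with Benjamini-Hochberg adjustment over all genes. None of the 10 passed an adjusted p under 0.05, where 0% of all genes did. At an unadjusted p under 0.05 the count was also 0 of 10, where 7.9% of all genes passed. Values did not overlap for 3 hosts (GAS5 above, SNHG1 and SNHG6 below), where 13.6% of all genes did not overlap. For GAS5 the 95% interval of the difference ran from -0.06 to 0.22, and for SNHG1 from -0.52 to 0.07.

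In Gilteritinib against DMSO, 3 hosts were above 0 and 7 below, with a median difference of -0.03 in log2(FPKM + 1), equal to the -0.03 over all genes at this precision. SNHG15 had the largest difference, -0.16 (SE 0.113, adjusted p = 0.9999 by limma), and SNHG8 was at 0.09 (95% interval -0.06 to 0.25). No host passed the adjusted threshold (0% of all genes) or an unadjusted p under 0.05 (1.86% of all genes). SNHG8 alone did not overlap, being above DMSO, where 6.57% of all genes did not overlap. GAS5 differed by -0.03 with a 95% interval of -0.17 to 0.11. With the replicate number as a block, SNHG15 had an unadjusted p of 0.0175 by limma (adjusted 0.956), where 4.96% of all genes had one under 0.05.

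The combination against DMSO gave the lowest values. On the scale of FPKM + 1, SNHG6 was at 0.752 of its DMSO level (-0.41 in log2(FPKM + 1), SE 0.133, 95% interval -0.71 to -0.12). SNHG15 was at 0.794 of its DMSO level (-0.33, SE 0.113, 95% interval -0.58 to -0.08). SNHG5 was at -0.17 (SE 0.0809), SNHG1 at -0.19 and SNHG3 at -0.17, while SNHG16, SNHG8 and GAS5 were at 0.01, 0.03 and -0.03. The median over the 10 hosts was -0.14, beside -0.01 over all genes, and 8 of 10 were below 0, beside 54% of all genes.

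None of these differences passed the adjusted threshold in limma (adjusted p = 1 for SNHG6 and SNHG15), where 0.00538% of all genes passed. At an unadjusted p under 0.05, 2 of 10 hosts passed, where 1.67% of all genes did. These were SNHG6, with an unadjusted value of 0.0107 in limma, and SNHG15, with 0.0139. The same 2 hosts did not overlap with DMSO, where 5.73% of all genes did not. With the replicate number as a block, 3 hosts had an unadjusted p under 0.05, SNHG15 (0.000221), SNHG6 (0.00575) and SNHG5 (0.0419), where 4.35% of all genes did, and the adjusted p of SNHG15 was 0.822. Without the replicate 1 library of the combination the difference of SNHG6 was -0.26 and that of SNHG15 -0.25.

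**Figure D2:**
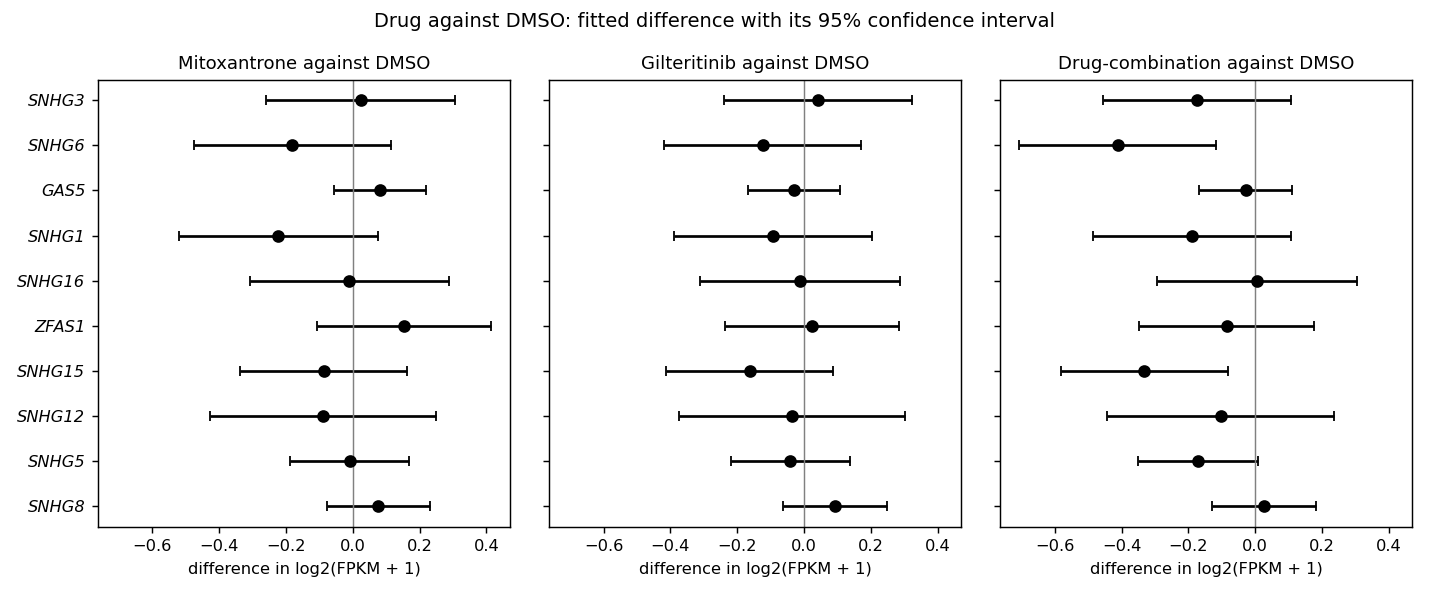
Fitted difference of each drug condition from DMSO in log2(FPKM + 1) (horizontal axis, 0 marked) for the 10 hosts (vertical axis), with 95% confidence intervals from limma. In the combination the intervals of SNHG6 (-0.71 to -0.12) and SNHG15 (-0.58 to -0.08) leave out 0, and in the single drugs all 20 include it.

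The difference between the combination and DMSO was unevenly spread over the replicate numbers. Within replicate 1, 9 of 10 hosts were lower in the combination, with a median difference of -0.40 in log2(FPKM + 1). In replicate 2, 6 of 10 were lower with a median of -0.01, and in replicate 3, 4 of 10 with a median of 0.03. Over all genes tested the medians were -0.01, 0.00 and -0.01. SNHG1 was at -0.65, -0.01 and 0.09 in replicates 1, 2 and 3, and SNHG12 at -0.61, 0.17 and 0.13, so that their differences lay almost wholly in replicate 1. SNHG6 (-0.80, -0.13 and -0.30), SNHG15 (-0.43, -0.21 and -0.35) and SNHG5 (-0.36, -0.03 and -0.11) were lower at all 3 numbers. The share of all genes lower at all 3 numbers was not counted. With replicates 2 and 3 only, SNHG6 was at -0.22 (SE 0.0584, adjusted p = 0.455 by limma) and SNHG15 at -0.28 (SE 0.0825, adjusted p = 0.496 by limma).

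By summed FPKM, replicate 1 held both the highest and the lowest library. The summed FPKM of the 10 hosts was 454 in DMSO replicate 1, the highest, and 330 in Drug-combination replicate 1, the lowest of the 12 libraries, and the other 10 libraries lay between 369 and 452. As a share of all fragments the hosts took 0.125% in the former and 0.0966% in the latter, which was again the lowest, while Gilteritinib replicate 2 was the highest (0.1255%).

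**Figure D3:**
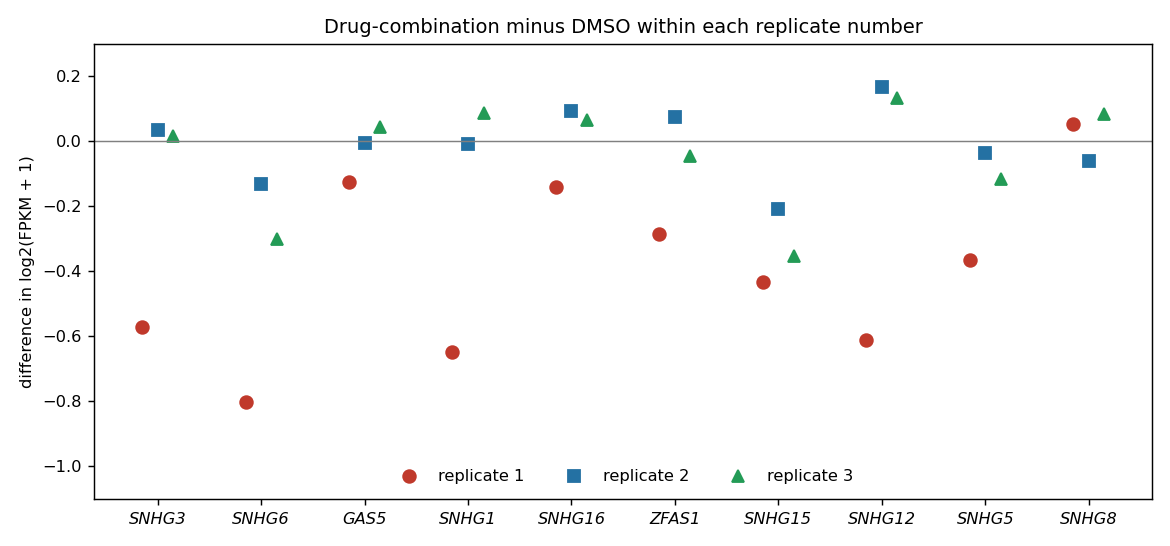
Difference between Drug-combination and DMSO in log2(FPKM + 1) (vertical axis, 0 marked) for each host (horizontal axis) within replicates 1, 2 and 3. The replicate 1 points lie lowest for 9 of the 10 hosts, down to -0.80 for SNHG6, and only SNHG6, SNHG15 and SNHG5 have all 3 points below 0.

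Against the single drugs the combination asks what the second drug added. These comparisons share libraries with those against DMSO. In Drug-combination against Gilteritinib, SNHG6 was at -0.29 (SE 0.133, 95% interval -0.58 to 0.01), SNHG3 at -0.21 and SNHG15 at -0.17, and 8 of 10 hosts were below 0 with a median of -0.10. Over all genes 42.8% were below 0 and the median was 0.02. SNHG6, SNHG15, SNHG3 and SNHG5 were lower at all 3 replicate numbers, and the share of all genes that were so was not counted. No host passed the adjusted threshold of limma (0% of all genes) or an unadjusted p under 0.05 (1.63%), and all 10 overlapped, where 6.2% of all genes did not. With the replicate block 2 hosts had an unadjusted p under 0.05, SNHG15 (0.0139) and SNHG6 (0.0324), where 4.39% of all genes did.

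In Drug-combination against Mitoxantrone, SNHG15 was at -0.25 (SE 0.113), ZFAS1 at -0.24, SNHG6 at -0.23 and GAS5 at -0.11, with a median of -0.14 beside -0.04 over all genes. GAS5, ZFAS1, SNHG5, SNHG6 and SNHG15 were lower at all 3 replicate numbers. Over all genes 59.5% were below 0 in this comparison, and the share lower at all 3 numbers was not counted. No host passed the adjusted threshold (0% of all genes) or an unadjusted p under 0.05 (5.53%), and GAS5 and ZFAS1 did not overlap, where 9.34% of all genes did not. SNHG15 differed by -0.24, -0.23 and -0.27 at replicates 1, 2 and 3, and with the replicate block its unadjusted p was 0.00176 and its adjusted p 0.178 by limma, where 12.2% of all genes had an unadjusted p under 0.05.

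In Gilteritinib against Mitoxantrone the hosts lay on both sides of 0, with 5 above and 5 below. The ends were ZFAS1 at -0.13 and SNHG1 at 0.13. No host passed the adjusted threshold (0% of all genes) or an unadjusted p under 0.05 (9.52%), and GAS5 alone did not overlap, being lower in Gilteritinib, where 14.4% of all genes did not overlap.

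Whether Mitoxantrone acted differently with Gilteritinib present was tested as an interaction, at unequal Gilteritinib doses of 25 nM alone and 20 nM combined. ZFAS1 had the largest value, -0.26 in log2(FPKM + 1) (95% interval -0.63 to 0.11), and SNHG3 was at -0.24 (95% interval -0.64 to 0.16). No host passed the adjusted threshold (0% of all genes) or an unadjusted p under 0.05 (2.91%). The interval for SNHG1 ran from -0.29 to 0.55 and that for SNHG12 from -0.46 to 0.50, so values within them are not excluded.

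SNHG15 and SNHG16 differed between replicate numbers. With the condition in the model, SNHG15 was lower in replicate 1 than in replicate 2 by limma (-0.27 in log2(FPKM + 1), SE 0.0482, adjusted p = 0.00567), and in all 4 conditions. SNHG16 was lower too (-0.24, SE 0.0655, adjusted p = 0.0251 by limma), with all 4 replicate 1 values (34.7 to 40.8 FPKM) below all 8 others (42.6 to 48.1 FPKM). How many of all genes have such a gap was not counted. Against replicate 3, SNHG16 was at -0.30 (adjusted p = 0.0101 by limma) and SNHG15 at -0.15 (adjusted p = 0.0445 by limma). Thus 2 of 10 hosts passed in each, where 26.7% of all genes passed in replicate 1 against 2 and 33.7% in replicate 1 against 3, so the share of the hosts was under the background. Between replicates 2 and 3, 0 of 10 hosts and 0% of all genes passed in limma, with SNHG15 at an unadjusted p of 0.0329. At an unadjusted p under 0.05, 722 of the 18574 genes were higher in replicate 2 and 104 lower. The call of SNHG15 against replicate 3 was lost without any 1 of 10 libraries (all but DMSO replicates 1 and 2), and that of SNHG16 against replicate 2 without replicate 1 or 2 of Gilteritinib or Drug-combination. Without DMSO replicate 1, SNHG1 and SNHG6 passed as well, at -0.27 and -0.32 against replicate 2. The share of all genes that passed without that library was not counted, so these calls have no background beside them.

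Of the snoRNAs in their introns, only SNORA73B was deep enough for a close look, with 1196 to 4683 fragments per library. It was at 486, 189 and 189 FPKM in DMSO, 317, 185 and 209 in Mitoxantrone, 555, 223 and 203 in Gilteritinib, and 373, 193 and 170.5 in Drug-combination. Replicate 1 was the highest library of every condition, and all 4 replicate 1 values lay above all 8 others. The share of all genes with such a gap was not counted. The difference was 1.10 in log2(FPKM + 1) against replicate 2 (SE 0.124, adjusted p = 0.000979 by limma) and 1.13 against replicate 3 (adjusted p = 0.000816 by limma). In these comparisons 26.7% and 33.7% of all genes passed, and of the 5 snoRNAs 1 passed in each (20%), SNORA73B. Its host SNHG3 was at -0.12 and 0.01 in the same comparisons, and the difference between host and snoRNA was not tested. SNORA73A, a near copy, lies in the same host, so reads of the copies may be mixed.

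**Figure D4:**
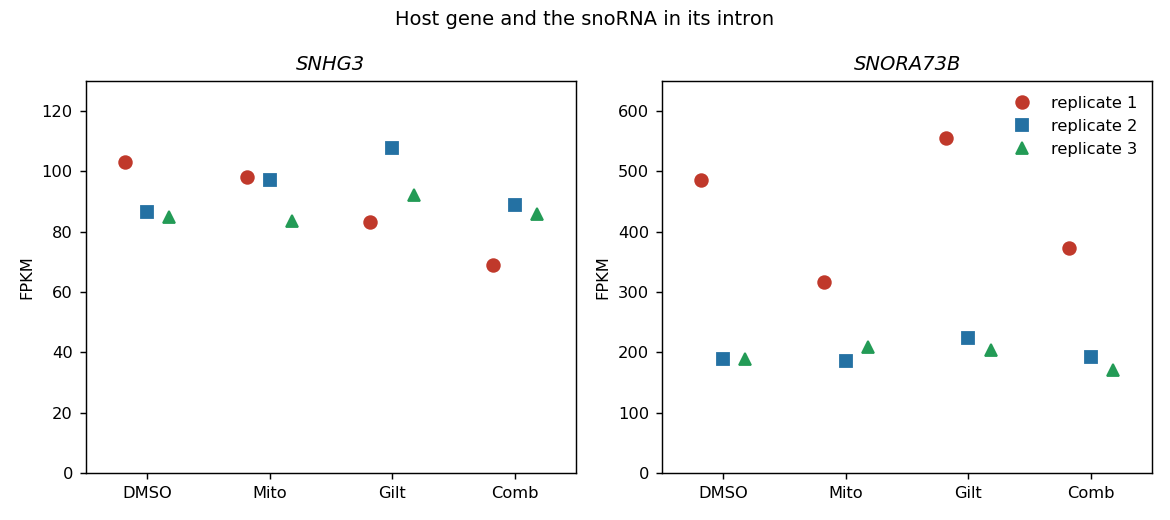
FPKM (linear axes from 0, of different range) of SNHG3 and of SNORA73B, in its intron, in each library by condition and replicate number. The 4 replicate 1 values of SNORA73B lie between 317 and 555 FPKM and the other 8 between 170.5 and 223, while for SNHG3 replicate 1 is highest in DMSO and Mitoxantrone and lowest in Gilteritinib and Drug-combination.

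The other intron snoRNAs were shallow. SNORD12C had 34 to 108 fragments per library, SNORD1B 11 to 37, SNORD12B 4 to 17 and SNORD99 3 to 22. No condition comparison passed the adjusted threshold for any of the 5. In Drug-combination against Mitoxantrone, SNORD1B was at -0.72 in log2(FPKM + 1) (SE 0.207, adjusted p = 0.84 by limma), and SNORD99 was at -1.12 against DMSO (SE 0.484, adjusted p = 1 by limma). Such fragments can come from a mature snoRNA or from unspliced host RNA, which cannot be told apart here.

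Other genes of the same biology were read from lists. Of 23 names of other non-coding snoRNA hosts, 19 matched a row and 16 passed the filter on low values. In Drug-combination against DMSO none passed the adjusted threshold of limma, and 13 were below 0 and 3 above, where 54% of all genes were below 0. The median was -0.14 in log2(FPKM + 1), the same as for the 10 hosts at this precision. At an unadjusted p under 0.05, 1 of the 16 passed, where 1.67% of all genes did. This was SNHG21 at -0.50, with an unadjusted value of 0.00537 in limma and a low mean level of 2.16 FPKM. Between replicates 1 and 2, 3 of 16 passed (18.8%, beside 26.7% of all genes). SNHG14 was higher in replicate 1 (0.47, adjusted p = 0.0094), and SNHG19 (-0.76, adjusted p = 0.00949) and SNHG30 (-0.19, adjusted p = 0.0344) were lower, by limma.

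Protein-coding hosts of snoRNAs, mostly genes of translation, showed 0 of 35 past the adjusted threshold of limma in Drug-combination against DMSO, none at an unadjusted p under 0.05, and a median of -0.01. In replicate 1 against replicate 2, 12 of 35 passed (34.3%, beside 26.7% of all genes), 3 higher and 9 lower in replicate 1, with EIF4A2 at 0.25 and HSPA9 at -0.29. Other TOP mRNAs had a median of 0.02 in the combination against DMSO with 0 of 21 tested past the adjusted threshold and 0 at an unadjusted p under 0.05. Between replicates 1 and 2, 9 of 21 passed (42.9%, beside 26.7% of all genes), 7 of them lower in replicate 1, among them RPL19 at -0.45.

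Factors of nonsense-mediated decay, which removes many of these spliced RNAs, had a median of -0.03 in Drug-combination against DMSO, with 0 of 18 past the adjusted threshold and 0 at an unadjusted p under 0.05 by limma. In replicate 1 against replicate 2, 3 of 18 passed (16.7%, beside 26.7% of all genes). UPF1, its central helicase, was higher in replicate 1 (0.22, adjusted p = 0.0226 by limma), and RNPS1 (-0.22, adjusted p = 0.025) and MAGOH (-0.28, adjusted p = 0.0489), proteins bound near exon junctions, were lower. Of 6 mRNAs known to be sensitive to this decay, many of them also stress genes, 0 passed in the combination against DMSO by limma (0 at an unadjusted p under 0.05), with a median of -0.12. In Mitoxantrone against DMSO all 6 were above 0 (median 0.22), where 43% of all genes were below 0. Of the 6, 0 had an unadjusted p under 0.05 (7.9% of all genes) and 3 had one with the replicate block (15.9%). In Drug-combination against Mitoxantrone 5 of 6 were below 0 (median -0.41), beside 59.5% of all genes. Here 1 had an unadjusted p under 0.05 (5.53% of all genes) and 5 had one with the replicate block (12.2%). None passed the adjusted threshold in either fit. All 6 passed in replicate 1 against replicate 2 (26.7% of all genes), 5 lower and 1 higher, with ATF4 at -0.92 (SE 0.0564), TBL2 at -0.56 and GADD45B at -0.56. Of 16 tested snoRNP proteins, which bind and mature snoRNAs, 13 were below 0 in the combination against DMSO (54% of all genes). Their median was -0.07, and none passed the adjusted threshold or an unadjusted p under 0.05 by limma. In Mitoxantrone against DMSO 15 of 16 were below 0 (43% of all genes), with a median of -0.09. At an unadjusted p under 0.05 were 2 of them (7.9% of all genes). In Gilteritinib against DMSO 11 of 16 were above 0, where 59.8% of all genes were below. The median was 0.02, and 1 was below 0 at that threshold (1.86% of all genes in either direction). In replicate 1 against replicate 2, 7 were lower and 2 higher (56.2% of the list, beside 26.7% of all genes), with NOP56 at -0.41, RUVBL1 at -0.30 and SNU13 at -0.23.

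The hosts varied together to some degree. Over the 12 libraries, which share their replicate shifts and conditions, the 45 pairs had Pearson correlations of -0.27 to 0.84 with a median of 0.45, and 35 were above 0. With the means of the replicate numbers removed the median was 0.47. SNHG3 and SNHG6 followed the mean profile of the hosts most closely (r = 0.92 and 0.91), and SNHG8 did not (r = -0.02). The members are part of that mean, so these values are a description. Outside the list, the genes most like the mean profile were POLR1C, a subunit of RNA polymerases I and III (r = 0.92), ENSG00000248696 (0.91), the lipoprotein receptor gene LRP8 (0.91), MIR142HG (0.90) and EIF2B2, a subunit of an exchange factor of translation initiation (0.90). With replicate means removed they were MAPKAPK5 (0.94), LRP8 (0.93), the amino acid transporter gene SLC7A1 (0.93), RPL36AL (0.93) and RRP1, a nucleolar protein of ribosome assembly (0.92). These were the highest among all tested genes with a mean FPKM of at least 5.

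Depth was 31725020 to 41330660 fragments per library. The replicate 1 libraries stood apart in many genes, as the shares above show, and what a replicate number stands for is not given in the sources used here. The labelled cell type fitted its markers in part: of 11 myeloid markers 9 had an FPKM of at least 1 in every library, with FLT3 at 132 to 171, while CD14 was at 0.0345 to 0.264. Summed over the list they ranged from 876 to 1011 FPKM in DMSO, 888.5 to 1287 in Mitoxantrone, 889 to 1512 in Gilteritinib and 910.2 to 1708 in Drug-combination. LYZ alone ranged from 490 to 1333 FPKM over the 12 libraries. In Drug-combination against DMSO the 10 tested markers had a median difference of 0.09 in log2(FPKM + 1). There 0 had an unadjusted p under 0.05 by limma (1.67% of all genes). In Mitoxantrone against DMSO 3 had one, all higher (7.9% of all genes). In replicate 1 against replicate 2, 1 of the 10 was higher and 3 lower past the adjusted threshold (40%, beside 26.7% of all genes). LYZ was the higher one (0.94, adjusted p = 0.00168 by limma), and CSF1R was among the lower ones (-0.80, adjusted p = 0.00146 by limma). Of 17 matched markers of other cell types, 14 were under 1 FPKM in every library, and PECAM1 was at 9.17 to 25.1 FPKM. Their sum was 12.02 to 18.4 FPKM in DMSO, 14.8 to 30.4 in Mitoxantrone, 14.6 to 19.0 in Gilteritinib and 16.3 to 18.5 in Drug-combination, and CD3D, EPCAM, COL1A2 and DCN had a median of 0. The part of these differences in the values of the hosts was not tested.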

How the data were processed

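RNA-seq libraries of MV4-11 cells (4 conditions, 3 each) were analysed from 1 table of FPKM deposited by the authors. Per the labels, total RNA was amplified by the Geo-seq method and tagged with a TruePrep kit. The submitters' processing notes list Bowtie 0.12.9, Cufflinks 2.1.1, HTSeq, DESeq2 and the mouse build mm10, with no role given, although the identifiers are human. Whether strand was kept is not given in the sources used here. Positions came from GENCODE 29, which held 40169 of the 43876 identifiers.

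Genes were kept where 3 or more libraries reached 1 FPKM (18574 genes) and were used as log2(FPKM + 1). limma 3.58.1 (R 4.3.3) took the 12 libraries together, each condition having its own mean, with a mean-variance trend, two-sided, with Benjamini-Hochberg adjustment within a comparison and a threshold of 0.05. Replicate numbers were compared with condition in the model. Deviations from condition means correlated at 0.165 to 0.657 in the 18 same-numbered pairs. In the 36 other pairs across conditions they correlated at -0.562 to 0.434, and these ranges overlap. All 18 same-numbered pairs were above 0. With condition in the model, replicate 1 differed from replicates 2 and 3 in 26.7% and 33.7% of all genes, and replicates 2 and 3 in 0%. The replicate 1 libraries thus share a shift, while whether the numbers 2 and 3 pair libraries is not settled. The main fit leaves that shift in the spread between replicates, and a fit with the number as a block was an alternative. Depth and gene length were recovered from the steps that whole fragments make. Of 14421 genes, 57.6% were whole in all libraries at the longest GENCODE 29 transcript and 27.8% at the union of exons. The limma step was tested on simulated data. All 10 members are named. List genes are named where they passed, at most 3 per list and comparison with the smallest p. SNHG21, SNORD1B, SNORD99, LYZ and CSF1R, and the markers with levels, were chosen for naming once their values were known. The members and lists were chosen with earlier results of these data known. Alternatives were other pseudocounts, filters, scalings, libraries and thresholds. Some genes that the rule would name are not reported here.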

Additional observations from a re-analysis of the deposited data

How the results depend on the processing

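In all 7 comparisons of conditions the count of hosts past the adjusted threshold stayed at 0 under every alternative that kept that threshold, including the replicate block (0 in each), replicates 2 and 3 only and leaving out each library. At an unadjusted p under 0.05 the count was 2 in Drug-combination against DMSO, where 1.67% of all genes passed. It was 1 in replicate 2 against replicate 3, where 722 of 18574 genes were higher and 104 lower. With the replicate block and that threshold, chosen after seeing the data, it was 1 in Gilteritinib against DMSO, 3 in Drug-combination against DMSO, 2 in Drug-combination against Gilteritinib and 1 in Drug-combination against Mitoxantrone. The shares of all genes there were 4.96%, 4.35%, 4.39% and 12.2%, in that order. With replicates 2 and 3 only, 6.41% of all genes passed the adjusted threshold in Mitoxantrone against DMSO, 0.0485% in Drug-combination against DMSO, and 0 hosts did.

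For replicate 1 against replicate 2 the count of 2 hosts was 1 with no filter on low values, and 1 to 4 when a library was left out: SNHG16 was lost without replicate 1 or 2 of Gilteritinib or Drug-combination, and 4 passed without DMSO replicate 1. For replicate 1 against replicate 3 it was 1 with no filter, 1 with no mean-variance trend and 1 to 4 when a library was left out. SNHG15 was lost there without any 1 of 10 libraries (all 9 drug-treated libraries and DMSO replicate 3), and 4 passed without DMSO replicate 1. With median-ratio scaling SNHG1 also passed against replicate 3 (-0.32). The shares of all genes that passed between replicate numbers under these alternatives were not counted, so the counts of hosts have no background beside them.

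Of 2000 fold changes of hosts under alternatives, 133 changed sign, none of them past the threshold in either fit, and the cause was not tested. Over 21 alternatives the difference of SNHG6 in Drug-combination against DMSO ranged from -0.53 to -0.22 and that of SNHG15 from -0.42 to -0.25. Median-ratio scaling moved a library by at most 0.14 (log2) and moved 2 of 40 levels by over 1 SD, those of GAS5 and SNHG6 in Mitoxantrone. Counting error of the hosts was 3.24% at most if each fragment came from a separate molecule. The RNA was amplified, and how many fragments are copies was not measured, so the error can be larger. The median coefficient of variation between 3 replicates was 9.002%.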

Other observations

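Whether a snoRNA gene has a row in the table went with its position in other genes across the whole annotation. Of 943 snoRNA genes in GENCODE 29, 439 had a row. Of the 185 with a base in a same-strand exon of another gene 22 had a row (11.9%), and of the 758 others 417 had one (55.0%). The table holds 0 rows that are at 0 in all libraries, so a gene with no counted fragment has no row either. Fragments that fall on such a snoRNA and on an exon of its host could not be seen separately here.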
